A study of Mus musculus with 104 samples.

Results

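Whole hypothalamus of young male BALB mice was compared with that of young male C57BL/6 mice (labelled C57BL6/J), both at 2 to 3 months of age and with no agent given. The arrays were chosen by the strain, tissue and age on their labels, which gave 7 BALB and 5 C57BL/6 arrays, 12 of the 104 samples in the series. The mice came from an aged rodent colony and were monitored in their home cages before a subset of them went to RNA extraction. Each RNA was labelled with a single dye and hybridized to an Agilent whole mouse genome array, on which a gene is read as the brightness of probe spots. Values of these arrays are log2 processed signals after quantile normalization over the 12 arrays, unless another processing is named. Other arrays of the series were normalized within their own comparison, so levels in different comparisons are not on 1 scale. Differences are BALB minus C57BL/6 in log2 units (1 unit is a factor of 2), unless stated otherwise.

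The hypothalamus releases peptides that set feeding, sleep, fluid balance, growth, stress and reproduction, and each peptide acts on other neurons or on the pituitary through its own receptors. Inbred strains such as BALB and C57BL/6 carry fixed alleles that differ at many genes. A gene that is deleted in a strain is read at background in every tissue of it. An allele can also change the stretch of a transcript that a probe matches, in which case the signal differs although the amount of RNA need not.

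No slide carried both strains. The BALB arrays lay on 4 slides read with Feature Extraction 9.1.3.1, and the C57BL/6 arrays on 5 slides read with version 10.1.1.1. Strain, slide and software version cannot be told apart in these 12 arrays. Probes were well above background for 61.8% to 71.3% of the total on BALB arrays 2 to 7, for 90.1% on BALB array 1 and for 79.3% to 85.3% on the C57BL/6 arrays. BALB array 1 correlated with the other BALB arrays at 0.928 to 0.937 across probes, against 0.976 to 0.988 among BALB arrays 2 to 7, 0.991 to 0.996 among the C57BL/6 arrays and 0.912 to 0.967 between strains. For these reasons large differences and genes read in a single strain are given first. Each gene is also read, on the same probe, in aged hypothalamus (6 BALB and 5 C57BL/6 arrays, with the same difference in software version) and in cerebellum (4 arrays labelled aged BALB cerebellum and 6 of aged C57BL/6), where a single software version, 10.5.1.1, read both strains. The tissue label was borne out in both strains: the melanin-concentrating hormone precursor Pmch read 15.81 to 16.48 and the orexin precursor Hcrt 15.25 to 16.51 over the 12 arrays.

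Genes read in a single strain came first. A gene was taken as read in a single strain when its brightest probe was well above background on every array of that strain and on none of the other, with a bound of at least 2-fold. Of 22134 genes tested, 4 were read in BALB alone (0.0181%) and 119 in C57BL/6 alone (0.538%). Only 1 of the 4 and 10 of the 119 have a current gene symbol. The total of 123 was 261 without BALB array 1 and 55 with normexp background correction, another way to remove the background. The sizes of differences that involve a dim strain rest on the background as well. Of 103 called named genes, 45 had a difference smaller by more than a factor of 1.5 with normexp and 38 in the deposited series table of log2 values, and none was larger by that factor. The fold bounds below hold for the processed signal alone.

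Gbp2b encodes an interferon-induced guanylate-binding protein, a GTPase that acts against intracellular microbes. Its promoter and that of its neighbour Gbp2 are shown because the pair lie side by side and read differently. The sequences are the RefSeq promoters of GRCm38.p6, from 250 bases before to 50 after the transcription start, with the interferon-stimulated response element in capitals, searched as TTTC, any 2 bases and TTTC. Both strands were searched. The Gbp2b window is chr3:142594597-142594896 and the Gbp2 window chr3:142620413-142620712, both on the plus strand.
Gbp2b: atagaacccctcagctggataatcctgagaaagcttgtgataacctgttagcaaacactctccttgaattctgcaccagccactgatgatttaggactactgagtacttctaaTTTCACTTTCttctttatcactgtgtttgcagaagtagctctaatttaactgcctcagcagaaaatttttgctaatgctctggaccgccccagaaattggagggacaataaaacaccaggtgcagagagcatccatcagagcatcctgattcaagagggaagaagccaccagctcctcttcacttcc
Gbp2: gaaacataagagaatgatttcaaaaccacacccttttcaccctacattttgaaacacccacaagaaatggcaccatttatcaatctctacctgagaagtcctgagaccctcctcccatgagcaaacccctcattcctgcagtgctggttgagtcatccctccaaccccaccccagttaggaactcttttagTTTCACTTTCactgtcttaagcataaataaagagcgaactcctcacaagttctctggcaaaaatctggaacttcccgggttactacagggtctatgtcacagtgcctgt
The match begins 137 bases before the start of Gbp2b and 59 before that of Gbp2. Of 32851 promoters in the table, 1131 (3.44%) hold the same letters on either strand. A match is a description of the reference genome, and no promoter was sequenced in the mice of either strain.

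Gbp2b read 7.42, 7.88 and 8.31 (lowest, median and highest) on the 7 BALB arrays. On the C57BL/6 arrays it read 1.43, 1.37, 1.52, 1.42 and 1.46, not well above background on any of them. The strains lay far apart, with means of 7.87 ± 0.34 (SD, n = 7) and 1.44 ± 0.06 (n = 5), and the BALB level was at least 33.9-fold higher by the bound. The fitted difference was 6.43 (SE 0.16, adjusted p = 1.2e-10), against 2.21 with normexp and 2.88 in the series table. Gbp2b was higher by 6.99 in aged hypothalamus and by 5.76 in cerebellum, and it was well above background on 46 of 46 BALB arrays of hypothalamus, cerebellum and striatum in the series and on 0 of 22 C57BL/6 arrays. Gbp2, the next tested gene in the order of GRCm38.p6, differed by 0.16 and Gbp3, on the other side, by -0.47, and neither was called. Among all 9 guanylate-binding protein genes, a list added after the values were seen, 2 were higher in BALB (Gbp2b and Gbp4, by 1.02), none was lower and the median difference was 0.64.

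H2-Ea encodes the alpha chain of the class II molecule I-E, which C57BL/6 mice are known to lack through a deletion in its promoter. It read 4.26, 6.46 and 7.14 (lowest, median and highest) on the BALB arrays and was well above background on 6 of the 7. The C57BL/6 arrays read 1.66, 1.81, 1.96, 1.65 and 1.70, none of them well above background, and the groups did not overlap. The BALB mean was at least 9.2-fold higher by the bound, with measured means of 5.99 and 1.75. H2-Ea was well above background on 40 of 46 BALB arrays of hypothalamus, cerebellum and striatum and on 0 of 22 C57BL/6 arrays. Its difference of 4.24 was 1.03 with normexp and 1.64 in the series table. Its neighbour H2-Eb1, the beta chain of the same molecule, differed by 0.29 (SE 0.37) and was not called.

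**Figure D1:**
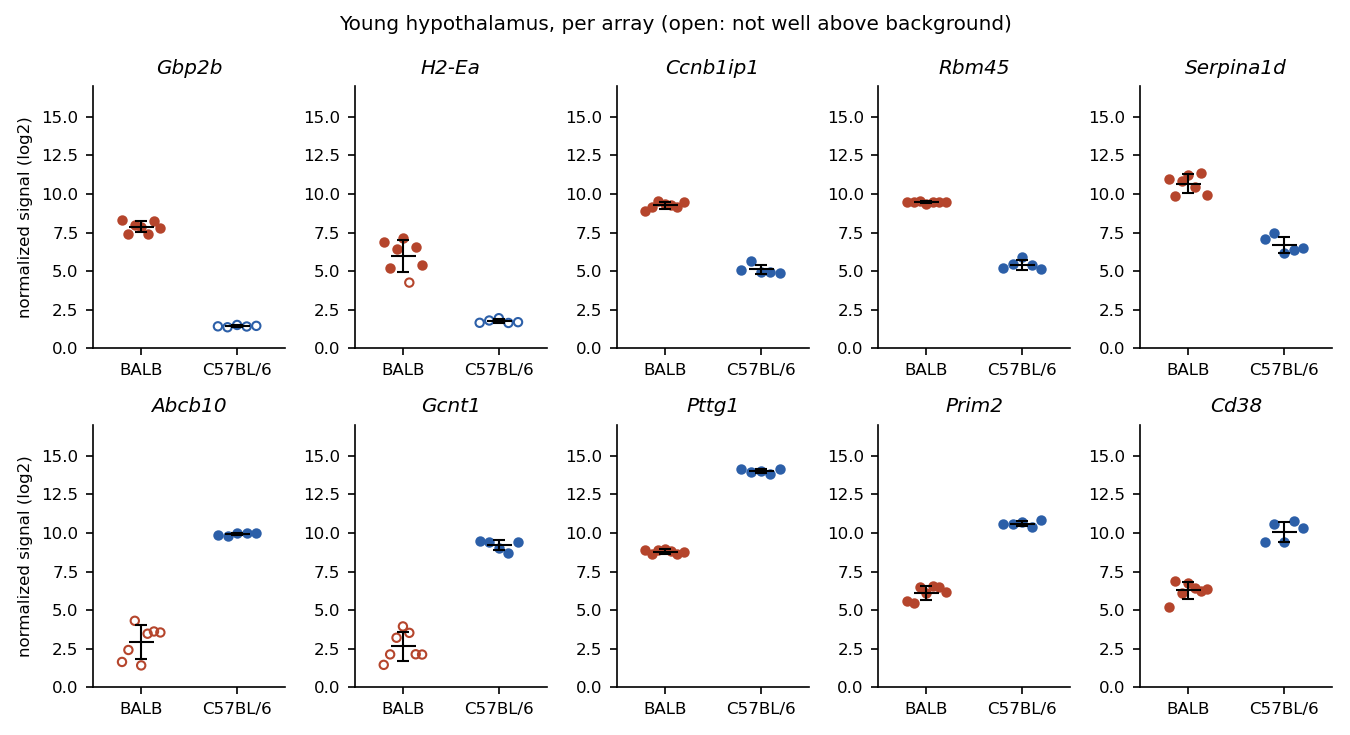
Normalized log2 signal of 10 genes on each young hypothalamus array, 7 BALB (red) and 5 C57BL/6 (blue), with the mean and SD. Filled points are well above background and open points are not. Gbp2b and H2-Ea sit near background on all C57BL/6 arrays, Abcb10 and Gcnt1 on all BALB arrays, and Pttg1 is high in C57BL/6 and 5.21 lower in BALB.

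Of the 10 genes with a symbol that were read in C57BL/6 alone, Abcb10, a mitochondrial transporter needed for heme synthesis, had the largest bound. It read 1.43, 3.48 and 4.32 (lowest, median and highest) on the BALB arrays and 9.88, 9.83, 9.97, 9.99 and 9.98 on the C57BL/6 arrays. The C57BL/6 level was at least 45.4-fold higher, both tested probes were called, and the difference in cerebellum was -3.63. The differences of Abcb10 and Gcnt1, -7.0 and -6.56, were -3.63 and -2.94 with normexp. Gcnt1, an enzyme that branches O-linked glycans, read 1.46 to 3.95 in BALB and 8.68 to 9.46 in C57BL/6, at least 27.6-fold higher, but only 1 of its 3 tested probes was called and the others differed by as much as 0.44 in the other direction. The remaining 8 had bounds of 2.12-fold to 5.74-fold. They were Smg8, a subunit of the kinase complex of nonsense-mediated decay, the peroxisomal lyase Hacl1, the lysine methyltransferase Camkmt, the vesicle protein Sft2d1, Sox6os, Adgrf4, Wdr76 and Magef1. The calls of Wdr76 and Magef1 were lost in 10 and 9 of 12 cases when single arrays were left out.
These 8 did not read alike in other tissue. Hacl1 differed by 1.74 in cerebellum, Magef1 by 1.41 and Camkmt by 0.82, all in the direction opposite to hypothalamus, and none of these 3 was called there. Smg8 was not tested in cerebellum, where its BALB arrays read 4.58 to 6.06 and its C57BL/6 arrays 1.99 to 3.58, whereas it was lower in hypothalamus (-5.13). In cerebellum Adgrf4 differed by -1.82 and Wdr76 by -0.18, neither called. Sox6os and Sft2d1 were not tested in cerebellum. There Sox6os read 2.79 to 4.68 in BALB and 1.77 to 3.69 in C57BL/6, and Sft2d1 read 1.44 to 1.58 and 1.41 to 6.1. Abcb10 was well above background on 29 of 46 BALB arrays of hypothalamus, cerebellum and striatum and Gcnt1 on 25, against 22 of 22 C57BL/6 arrays for each. For neither is the gene silent on every BALB array.

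Because BALB array 1 carried more probes above background than the other BALB arrays, genes read on every array of a strain and on exactly 1 array of the other were listed as well, a choice made after the values were seen. There were 290 such called genes read on every C57BL/6 array and 5 read on every BALB array. The single BALB array was array 1 for 282 of the 290. Of the genes with a symbol, 13 were lower in BALB by more than 4 log2 and 4 were higher by more than 4.

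Thumpd1, an adaptor for the acetylation of tRNA, had the most negative difference of the comparison. It read 1.41, 1.42 and 3.31 on the BALB arrays, the highest on array 1, and 12.63, 12.69, 12.74, 12.79 and 12.62 on the C57BL/6 arrays. The difference was -11.00 (SE 0.30, adjusted p = 2.7e-10; -6.39 with normexp), with -10.68 in aged hypothalamus and -10.14 in cerebellum. A second Thumpd1 probe was called the other way, higher in BALB by 1.41.
Trim12a, a member of a family of restriction factors, read 2.35 to 4.17 in BALB and 9.50 to 10.40 in C57BL/6, with a second probe also lower, by 4.24 on the log2 scale. Its difference was -7.12 in young hypothalamus, -7.20 in aged hypothalamus and -7.21 in cerebellum. The neighbouring Trim34a was lower too, by -3.0 in hypothalamus and -2.94 in cerebellum, and Trim12c on the other side was not called (0.83).
Ccl21a, a chemokine of lymphoid tissue with near-identical copies in the genome that one probe may not separate, read 1.72 to 7.89 in BALB and 8.84 to 10.36 in C57BL/6. Its difference was -6.53, and -6.22 in cerebellum. The zinc finger gene Zfp874a differed by -5.84 and -5.41 in the 2 tissues, while the next gene, Zfp459, was higher in BALB by 3.08 and 4.45.

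The 4 genes on the BALB side were Ifi202b, Cyp2b9, Plau and Cyp2b13. Ifi202b, an interferon-inducible DNA sensor, read 6.89, 7.39 and 8.48 on the BALB arrays and 1.39, 2.66, 3.02, 2.77 and 2.23 on the C57BL/6 arrays. It was higher by 5.08 (SE 0.32, adjusted p = 2.3e-07), by 5.86 in aged hypothalamus and by 5.50 in cerebellum. It was well above background on 46 of 46 BALB and 7 of 22 C57BL/6 arrays of the same tissues. With normexp its difference was 1.83 and that of Plau 1.60. Ifi203, the tested gene before it, differed by 0.61 and was not called.
Plau, the urokinase plasminogen activator, read 7.22 to 7.67 in BALB and 2.25 to 3.49 in C57BL/6, a difference of 4.58, with 2.53 in cerebellum. The cytochrome P450 genes Cyp2b9 (5.03) and Cyp2b13 (4.37) lie next to each other and were both higher, although a second Cyp2b13 probe read lower in BALB by 1.93 on the log2 scale. These P450 genes are close relatives, and cross-hybridization between them was not tested.

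The stefin A genes encode small inhibitors of cathepsins and form a cluster of close copies. A list of 9 of them was made after the values were seen, and 8 were tested. Of these, 7 were lower in BALB and none was higher, with a median of -4.67. Csta2 read 3.51 to 5.72 in BALB and 10.09 to 11.56 in C57BL/6, and Csta1 1.56 to 5.90 against 8.65 to 9.98. Cstdc5 differed by -5.81, Cstdc4 by -5.10, Stfa2l1 by -4.24, Stfa2 by -4.07 and Stfa1 by -2.95, while Stfa3 was not called (0.87). In cerebellum the 8 genes had a median difference of 1.09, and B was below 0 for each. There BALB array 3 was the highest of its strain for Csta1 (9.99), Cstdc5 (9.39), Stfa2l1 (9.19), Stfa1 (8.94) and Stfa2 (8.71). It was also the highest for Cstdc4 (8.14) and Stfa3 (7.67), but not for Csta2 (3.96). The other BALB cerebellum arrays read 5.02 to 6.61 for Csta1. Stefin A genes are also known from neutrophils, so markers of that cell were read beside them. Of 6 tested neutrophil markers limma called 0 (1 higher at an unadjusted p under 0.05), and their median difference was 0.72. Their mean signal ran from 4.54 to 7.59 in BALB and 4.63 to 6.61 in C57BL/6. In cerebellum limma called 0 of these markers, with a median of 0.02. There BALB array 3 was the highest of its strain for S100a9 (14.83), S100a8 (12.79) and Ngp (7.28), but not for Camp, Ltf and Mpo. The part of neutrophils in the stefin A signal was not tested.

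Large differences between genes read in both strains followed. Of the 16179 genes well above background on all 12 arrays, 1817 were called higher in BALB and 1528 lower without overlap between the strains. Calls were made at B above 0, where B is the log odds that a gene differs given a prior of 0.01. Over all genes tested, 8.86% were called higher and 10.8% lower, and 13.3% had every BALB array above every C57BL/6 array and 16.2% the reverse. The 10 genes with a symbol and the largest difference in each direction are described here.

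Pttg1, securin, which holds back the separation of chromatids, had the largest difference of a gene with a symbol in this set. It read 8.62, 8.83 and 8.97 on the BALB arrays and 14.14, 13.93, 14.03, 13.82 and 14.15 on the C57BL/6 arrays. The difference was -5.21 (SE 0.09, adjusted p = 1.1e-11), with -5.14 in aged hypothalamus and -5.70 in cerebellum. The gap between the strains was many times the spread within each of them.
Prim2, a subunit of DNA primase, read 5.48 to 6.57 in BALB and 10.38 to 10.85 in C57BL/6, and differed by -4.48 in hypothalamus and -4.28 in cerebellum. Best1, a calcium-activated anion channel, differed by -3.98 and -3.24, with both of its probes called. Otud3, a deubiquitinase, differed by -3.14 and -4.53, and its neighbour Pla2g5, a secreted phospholipase, was higher in BALB in both tissues (2.44 and 1.90). In aged hypothalamus BALB arrays 4 and 5 read 10.50 and 10.60 for Otud3, within the C57BL/6 range of 10.22 to 10.73. The other aged BALB hypothalamus arrays read 5.53 to 6.71.
Prdm16, a zinc finger regulator of neural stem cells and brown fat, differed by -3.59 and -3.31, and Rec8, a meiotic cohesin, by -3.46 and -2.79.
Cd38, the NAD glycohydrolase that oxytocin neurons need for secretion, read 5.23, 6.40 and 6.87 in BALB and 9.40, 10.59, 9.41, 10.76 and 10.33 in C57BL/6. It differed by -3.80 in hypothalamus and -4.14 in cerebellum, but its second probe differed by only -0.66 and was not called.

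In 3 of the 10 lower genes the cerebellum gave no such difference. Pou5f2, a POU domain factor known from testis, read 6.78 to 7.55 against 10.29 to 10.67 and differed by -3.40 in young and -3.05 in aged hypothalamus, but by 0.30 in cerebellum. Tfap2e, an AP-2 transcription factor, differed by -3.29 and by 0.09 in cerebellum. A second, dimmer Tfap2e probe differed by -0.97 in hypothalamus and was not called. Grin2d, the GluN2D subunit of the NMDA receptor, read 8.61 to 9.64 in BALB and 11.39, 10.54, 12.62, 13.67 and 13.14 in C57BL/6. Its difference was -3.13 and -0.22 in cerebellum. Its C57BL/6 arrays spread over more than 3 log2 units, far more than those of Pttg1. Whether these differences differ between tissues was not tested.

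Among the 10 higher genes, Ccnb1ip1, a meiotic ubiquitin ligase, led with 4.16 (SE 0.15, adjusted p = 3.2e-09). It read 8.87, 9.32 and 9.56 in BALB and 5.11, 5.66, 4.97, 4.97 and 4.90 in C57BL/6. In cerebellum it was higher by 3.91. Rbm45, an RNA-binding protein of developing neurons, read 9.38 to 9.55 in BALB and 5.13 to 5.92 in C57BL/6, higher by 4.06 in hypothalamus and 2.98 in cerebellum. Its 7 BALB arrays lay closer together than those of any other gene in this paragraph.
Serpina1d, an alpha-1 antitrypsin, was higher by 3.94 and, in cerebellum, by 4.00. Its neighbours Serpina1b and Serpina1c were higher by 4.24 and 3.30 in hypothalamus and by 4.90 and 2.27 in cerebellum, so that all 3 tested members of this family of near-identical genes read higher in BALB. The probes may share signal between members.
The chemokine receptor Ccr6 (3.73), the antiprotease Slpi (3.60) and the serine protease Prss41 (3.60) were each called higher in cerebellum as well, by 2.59, 2.80 and 2.38. A second, dimmer Slpi probe gave 2.29 in hypothalamus and was not called. Sfrp1, a secreted inhibitor of Wnt signalling, was higher by 3.83 and in cerebellum by 1.74, although its second hypothalamic probe gave 1.24 and was not called.

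Clec3b, Slc22a2 and Fgfbp1 were higher by 4.06, 4.04 and 3.62, but their BALB arrays spread widely. Slc22a2, an organic cation transporter of kidney and meninges, read 5.77, 8.26 and 8.78 in BALB and 3.23 to 4.43 in C57BL/6. Clec3b, tetranectin, read 9.11 on BALB array 2 and up to 10.88 on the others. Fgfbp1, a carrier of fibroblast growth factors, read 6.58 to 9.83 in BALB and 4.30 to 5.21 in C57BL/6 and was not called in cerebellum (1.25). Fgfbp1 and Cd38 are next to each other in the reference order and moved in opposite directions.

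Beyond the named genes, the comparison called 1961 genes higher and 2401 lower, and the 2 directions were made up differently. Among 16255 genes with a current symbol, 1697 were higher (10.44%) and 1123 lower (6.91%), with a median difference of 0.04. Among 5879 genes known only by a clone or accession name, 264 were higher and 1278 lower (21.7%), with a median of -0.44. The clone-named genes were dim, with a median level of 5.80 against 10.2 for the others. Lower by more than 2 log2 were 749 clone-named genes, of which 351 were well above background on at most 1 BALB array. These 351 thus passed the filter mainly through the C57BL/6 arrays. When only probes well above background on all arrays were tested, 2055 genes were called higher and 1704 lower.

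Read on the same probes in the 2 other comparisons, the genes lower by more than 2 log2 split by kind of name. In aged hypothalamus, where 8.43% of genes were called higher and 10.6% lower, 97 of 106 genes with a symbol and 662 of 749 with a clone name were again called lower and none was called higher. In cerebellum, where 2.17% were called higher and 2% lower, 39 of 101 genes with a symbol were called lower and 3 higher, with a median of -1.03. Of the 729 clone-named genes, 49 were called lower and 18 higher there, 49.1% had the same sign, and the median was 0.02. On the higher side by more than 2 log2, 41 of 131 genes with a symbol were called higher in cerebellum and none lower, and 32 of 35 clone-named genes had the same sign.
The clone-named genes that were low in BALB hypothalamus were thus low again in other hypothalamus arrays of the same software versions and at a median near 0 in cerebellum. The part of the software, the slides and the tissue in this was not tested. Of genes tested in both, 131 were called higher in young hypothalamus and cerebellum (6.74% of the young calls and 27.8% of the cerebellar calls) and 164 were called lower (6.96% and 40.2%).

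**Figure D2:**
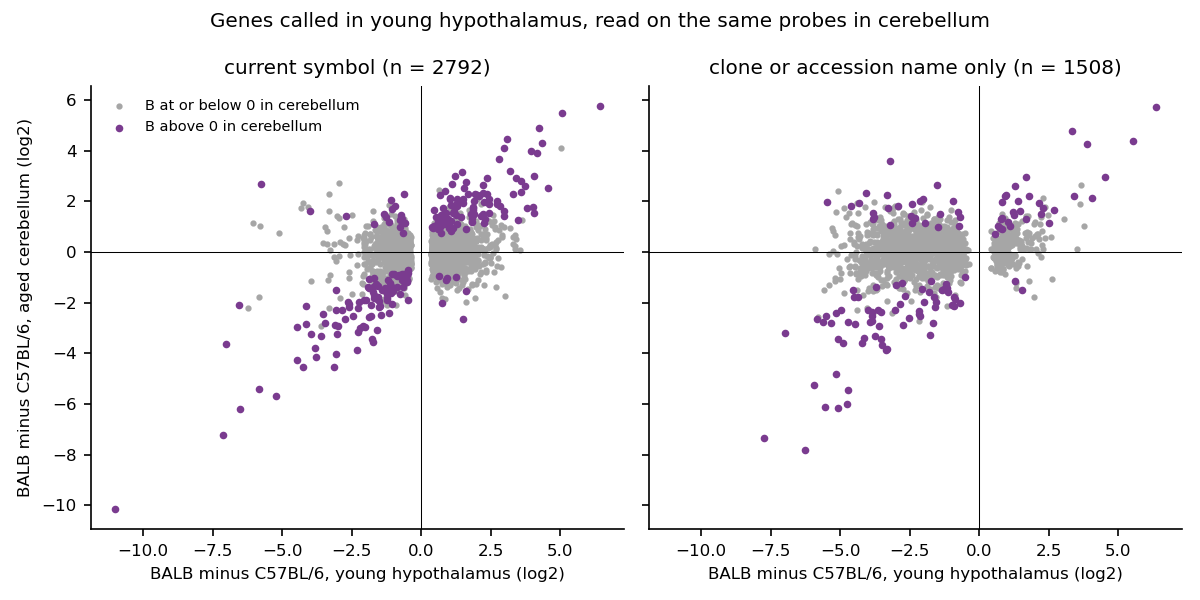
Each point is a gene called in young hypothalamus, with its BALB minus C57BL/6 difference (log2) there on the x axis and on the same probe in aged cerebellum on the y axis. Purple points had B above 0 in cerebellum. Among clone-named genes lower by more than 2 log2 the median in cerebellum was 0.02, and among genes with a symbol -1.03.

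The strain difference was then compared between ages. Of 23219 genes tested for a strain by age interaction over young and aged hypothalamus, limma called 0 at B above 0, and 1029 had an unadjusted p under 0.05. Without BALB array 1 it called 4, B230337E12Rik (1.17, the young minus the aged difference), D630045J12Rik (0.67), Gpr4 (1.47) and Syt9 (0.67).

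Class II molecules of the major histocompatibility complex present peptides to CD4 T cells, and in brain they mark macrophages of the meninges and vessels and few other cells. Among all genes with a symbol 10.44% were called higher and 6.91% lower, the shares to set beside this and the other list counts. At an adjusted p under 0.05, a stricter cut than an unadjusted p under 0.05, 4711 of all 22134 genes were higher and 5335 lower. List counts at an unadjusted p are to be set beside these. Of 10 class II genes tested, 3 were higher in BALB, none was lower and the median difference was 1.27. These were H2-Ea, H2-DMa (0.93), part of the peptide exchange factor, and H2-Aa (2.25), the alpha chain of I-A. The RefSeq promoters of H2-Aa and H2-Eb1 are shown because the tested class II genes of this stretch did not move alike. The windows are chr17:34287774-34288073 (minus strand) and chr17:34305617-34305916 (plus strand) of GRCm38.p6, with the Y box CTGATTGG in capitals, searched on both strands.
H2-Aa: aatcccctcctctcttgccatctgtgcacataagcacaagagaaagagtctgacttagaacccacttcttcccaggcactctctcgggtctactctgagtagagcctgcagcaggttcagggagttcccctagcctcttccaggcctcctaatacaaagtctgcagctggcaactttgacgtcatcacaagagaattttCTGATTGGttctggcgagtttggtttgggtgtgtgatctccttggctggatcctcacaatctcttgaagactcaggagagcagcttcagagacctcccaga
H2-Eb1: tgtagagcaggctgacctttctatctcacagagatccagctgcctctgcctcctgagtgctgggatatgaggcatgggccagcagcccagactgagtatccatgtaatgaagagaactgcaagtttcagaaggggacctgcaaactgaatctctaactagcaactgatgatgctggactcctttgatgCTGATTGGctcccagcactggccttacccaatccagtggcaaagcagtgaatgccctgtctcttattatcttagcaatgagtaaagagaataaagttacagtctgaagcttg
The Y box begins 51 bases before the start of H2-Aa and 62 before that of H2-Eb1, and 1346 of 32851 promoters (4.1%) hold it.
H2-Aa read 6.58, 8.02 and 9.25 in BALB and 5.27, 5.90, 5.77, 5.23 and 5.73 in C57BL/6. Its second probe went the other way, by -1.25, and was not called, so the array does not settle its direction. Its call was lost in 8 of 12 cases when single arrays were left out. H2-Ab1 (1.61, SE 0.31) and the invariant chain Cd74 (1.68, SE 0.36) were not called, although every BALB array read above every C57BL/6 array for both. All 4 H2-Ab1 probes were higher in BALB, and a dimmer one was called (2.70). H2-Ab1 was called with normexp (1.40) and without BALB array 1 (1.44) or 5 (1.74), and Cd74 without array 5 (1.84). The class II mean ran from 6.88 (array 5) to 7.95 in BALB and from 6.25 to 6.68 in C57BL/6. Of the 10 genes, 1 was called in cerebellum (H2-Oa, lower by 2.83 on the log2 scale) and the median there was -0.21.

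Class I molecules display peptides on most cells and, in brain, on neurons. Of 21 class I and antigen processing genes tested, 3 were lower in BALB and none was higher, with a median of -0.24. H2-D1 read 12.43, 12.65 and 13.14 in BALB and 14.17, 14.17, 13.58, 13.53 and 13.61 in C57BL/6, a difference of -1.09. Of its 3 probes only this one was called, and the next brightest differed by -0.24. H2-T22 differed by -1.10, also with 1 of 3 probes called, and H2-Bl by -1.88 with all 3 called. The dimmer H2-Bl probes differed by -3.62 and -6.32, the last by -5.06 in cerebellum. This last probe was well above background on 0 BALB and 5 C57BL/6 arrays, with means of 1.79 and 8.11. H2-K1 (-0.78) and B2m (0.23), the shared light chain, were not called. Class I genes differ in sequence between the strains' haplotypes and resemble each other closely, so the probes may not read the 2 strains equally and this was not tested.
The class I list mean was 11.1 on BALB array 1 and 10.2 to 10.4 on the other BALB arrays. It was 11.1 on C57BL/6 arrays 1 and 2 and 10.4 to 10.6 on arrays 3 to 5. The immune genes named by the study split in the same way within C57BL/6, with 11.1 on arrays 1 and 2 and 9.86 to 10.1 on the others. Of 34 tested, 1 was higher (Anxa4, 0.59, lost in 11 of 12 cases when single arrays were left out) and 3 were lower, which were H2-D1 and the complement genes C1qc (-1.60) and C1qb (-1.24), with a median of -0.08. Of 28 interferon-induced genes limma called 0 in young hypothalamus, with 3 higher and 6 lower at an unadjusted p under 0.05 and a median of 0.12, while 11 were lower in cerebellum. Their mean was 9.33 and 9.43 on C57BL/6 arrays 1 and 2, against 8.13 to 8.64 on arrays 3 to 5 and 8.40 to 8.89 in BALB.

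**Figure D3:**
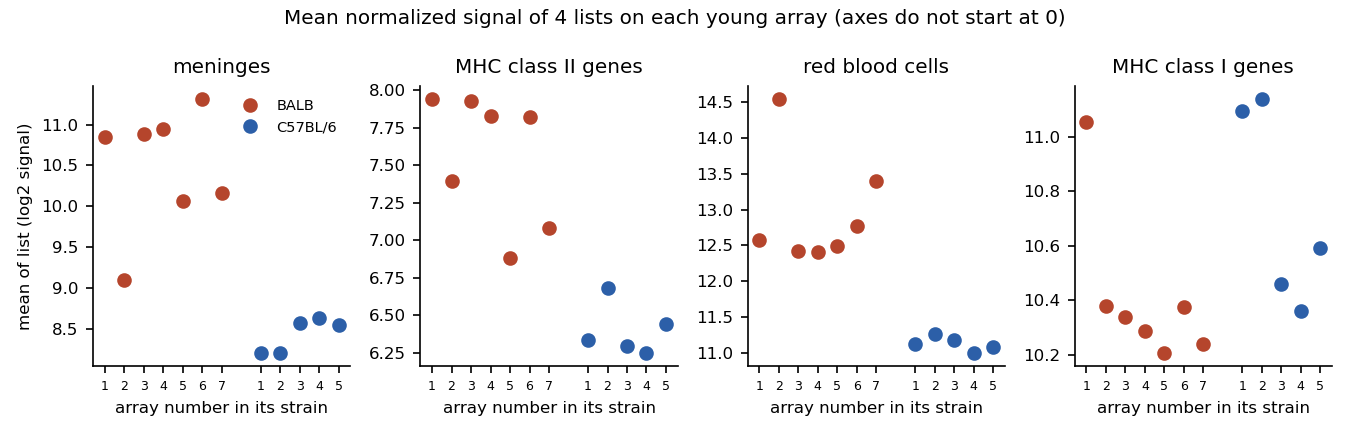
Mean normalized log2 signal over the tested members of 4 lists on each array, BALB (red) and C57BL/6 (blue); the y axes differ and do not start at 0. Meninges, class II and red blood cell means were higher on all 7 BALB arrays, and class I means were as high on C57BL/6 arrays 1 and 2 as on BALB array 1.

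Peptide precursors were read next. Of 33 hypothalamic peptide precursors tested, 6 were higher in BALB and 2 were lower, with a median of 0.21. Over all 246 tested genes of the pathway lists 25 were higher and 11 lower, against 10.44% higher and 6.91% lower among all genes with a symbol. Npvf, precursor of the peptides that restrain gonadotropin release, read 7.36, 7.60 and 8.15 in BALB and 4.58, 5.12, 4.83, 5.81 and 6.53 in C57BL/6. It was higher by 2.28 (SE 0.30, adjusted p = 8.6e-05) and in aged hypothalamus by 2.28, but by 1.07 with normexp in young hypothalamus. Npb, neuropeptide B, was higher by 1.34 with BALB at 8.77 to 10.08 and C57BL/6 at 8.05 to 8.70.
Cck, cholecystokinin, which signals satiety, read 13.16, 14.25 and 14.46 in BALB and 12.12 to 13.03 in C57BL/6 and was higher by 1.41, but its second probe differed by 0.01 and the aged difference was 0.20 with no call. Pnoc (0.79), Gal (0.71) and Cartpt (0.59), precursors of nociceptin, galanin and the anorexigenic CART, were higher by less than 1. Pdyn, precursor of dynorphin, read 13.60 to 14.63 in BALB and 14.60 to 15.27 in C57BL/6 (-0.91), and Npff differed by -0.91. Leaving out single arrays ended the call of Pdyn in 10 of 12 cases, of Cartpt, Cck and Gal in 9 each and of Npb in 3, with no change of direction.

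The peptides Pomc, Agrp, Npy and Hcrt, which define main feeding and arousal cell groups, were not called. Pomc, the melanocortin precursor, differed by 0.31 (SE 0.22), Agrp, the feeding peptide that opposes it, by -0.15 (SE 0.24), Npy by -0.36 (SE 0.14) and Hcrt by -0.16 (SE 0.20). Avp, the antidiuretic hormone, read 16.13 to 16.68 in BALB and 15.32 to 16.23 in C57BL/6 (0.69, SE 0.15). Oxt, oxytocin, read 16.26 to 16.82 against 15.04 to 16.34 (0.71, SE 0.20). Neither was called, but with 75th percentile scaling both were (1.05 and 1.09). Trh, the releasing hormone of the thyroid axis, differed by -0.75 (SE 0.17), and was called only with normexp (-0.75) or without BALB array 1 (-0.83).

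Of 44 receptors for feeding and other peptides tested, 7 were higher in BALB and none was lower, with a median of 0.18. The shares among all genes with a symbol were 10.44% higher and 6.91% lower. Galr1, a galanin receptor, had the largest difference. Galr1 read 5.47, 6.93 and 7.09 in BALB and 4.10, 4.82, 4.61, 4.44 and 4.29 in C57BL/6, higher by 2.21 (SE 0.26, adjusted p = 3.4e-05), and Galr2 read 6.60 to 7.28 against 4.67 to 5.46, higher by 1.63. Galr2 was also higher in cerebellum, by 2.76, and Galr1 was not called there (0.16). With normexp the differences of Galr1, Galr2 and Sstr1 in young hypothalamus were 0.88, 0.68 and 0.92.
Sstr1, a somatostatin receptor, was higher by 1.85, and the kappa opioid receptor Oprk1 by 1.28, with 9.83 to 10.34 in BALB and 8.65 to 9.02 in C57BL/6. Kiss1r (0.93), the kisspeptin receptor that drives puberty, Npy1r (0.86) and Ntsr2 (0.67) complete the 7, of which Ntsr2 lost its call in 8 of 12 cases when single arrays were left out and Npy1r in 1. A second Ntsr2 probe, bright in both strains, differed by 0.01. The leptin receptor Lepr (1.10, SE 0.32) and the melanocortin receptor Mc4r (-0.01, SE 0.10) were not called. In bulk tissue, more cells of a type and more RNA per cell cannot be told apart for any of these genes.

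**Figure D4:**
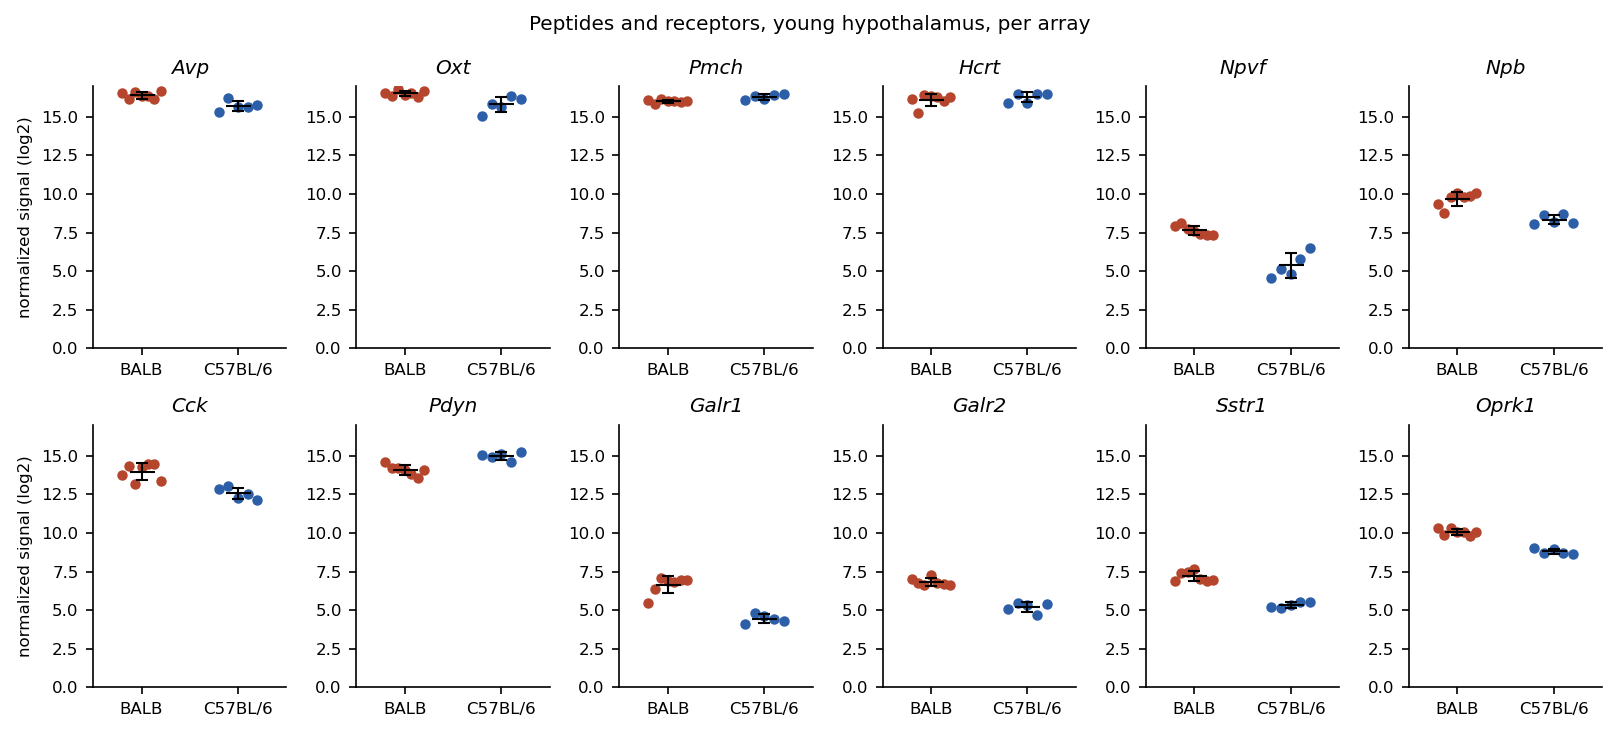
Normalized log2 signal of 8 peptide precursors and 4 of their receptors on each young array, BALB (red) and C57BL/6 (blue), with mean and SD. Avp, Oxt, Pmch and Hcrt lie above 15 in both strains, and Npvf, Galr1, Galr2, Sstr1 and Oprk1 separate the strains.

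Of 23 tested transcription factors that mark hypothalamic cell groups, 3 were higher, 2 were lower and the median was 0.06, shares near the 8.86% and 10.8% over all genes. Sim1, needed for the paraventricular nucleus, read 3.00, 5.31 and 5.63 in BALB and 7.63, 7.57, 8.45, 8.37 and 9.31 in C57BL/6. It differed by -3.24 in young (-1.76 with normexp) and -2.87 in aged hypothalamus. Isl1, a factor of arcuate neurons, differed by -1.37. Hmx3 was higher by 1.85, Vax1 by 0.78 and Dlx1 by 0.73. Markers of tissue next to the hypothalamus were mostly not called: 1 of 9 for striatum (Rasd2, -1.0, lost in 8 of 12 cases when single arrays were left out), 1 of 9 for cortex (Emx1, -1.16), and by limma 0 of 10 for thalamus and 0 of 7 for cerebellum (5 and 2 at an unadjusted p under 0.05). The pituitary hormones Gh (5.95 to 11.76 in BALB and 2.78 to 8.78 in C57BL/6) and Prl (3.60 to 13.97 and 2.65 to 10.05) varied from array to array in both strains, and limma called 0 of 7 pituitary markers (3 at an unadjusted p under 0.05).

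The cell type list with the most calls was that of the meninges, the membranes around the brain, which was made after the values were seen. Of 22 markers tested, 15 were higher in BALB, none was lower and the median was 2.10. The list includes Slc22a2, Aebp1 (3.39), Ogn (2.78), Slc22a6 (2.70), the collagens Col3a1 (2.66), Col1a1 (1.77) and Col1a2 (1.77), the retinoic acid enzyme Aldh1a2 (2.39) and the transcription factors Foxc2 (2.44) and Foxc1 (1.44). Its mean ran from 8.20 to 8.63 on the C57BL/6 arrays, and its summed signal from 15346 to 19812 against 21439 to 96812 in BALB on the linear scale. On the BALB arrays it was 9.1 on array 2, 10.1 on array 5, 10.2 on array 7 and 10.9 to 11.3 on the others. Every BALB array thus read above every C57BL/6 array, but the BALB arrays differed among themselves by more than 2 units. In aged hypothalamus 3 of the list were called higher and 0 lower, a count that does not give the size of the aged differences. For example, the aged BALB and C57BL/6 medians were 11.7 and 8.79 for Ogn, 12.4 and 8.92 for Aldh1a2 and 9.31 and 5.95 for Foxc2. The arrays of the 2 strains overlapped for each of these genes. In cerebellum 1 of the 22 was called (Slc22a2) and the median was 0.58. The count of 15 fell to 4 when slide was fitted as a random block. The part of this list in the differences of other genes was not tested.

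Of 4 red blood cell markers tested, 1 was called higher. Hba-a1, an alpha globin, read 15.82, 16.08 and 17.92 in BALB, the highest on array 2, and 14.31, 14.72, 14.45, 14.20 and 14.03 in C57BL/6 (2.12). The list mean was 12.4 to 14.6 in BALB and 11 to 11.3 in C57BL/6. Of 8 astrocyte markers, Aqp4, the water channel of astrocyte end feet, was higher by 1.62 with all 3 probes called, and the glutamate transporter Slc1a2 was lower (-0.72) on its brightest probe, with its 4 probes at -0.72 to 0.50. In cerebellum Aqp4 was lower by 1.55 on the log2 scale and called. Of 8 oligodendrocyte markers, Mbp (-0.63) and Opalin (-0.91) were lower and the galactolipid enzyme Ugt8a was higher (1.08). Of 8 microglia markers, Cx3cr1, the fractalkine receptor, was higher with both probes called (1.57). Of 8 neuron markers, Nefl (-0.73) and Stmn2 (-0.48) were lower. The calls of Stmn2, Mbp and Kl were lost in 9, 5 and 2 of 12 cases when single arrays were left out. Limma called 0 of 8 endothelial, 0 of 5 ependymal and 0 of 5 B cell markers, against 2, 4 and 0 at an unadjusted p under 0.05. Of 7 T cell markers only Gzmk, a granzyme, was called, higher by 3.57 (7.01 to 7.62 in BALB and 3.25 to 4.64 in C57BL/6) and by 1.49 with normexp. Of 7 choroid plexus markers, the anti-ageing protein Kl (0.94) and the BMP inhibitor Sostdc1 (0.66) were higher.

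Among 17 clock genes, 4 were higher and 1 lower, with a median of 0.11. Dbp, an output factor of the clock, read 15.71, 15.85 and 15.99 in BALB and 14.90, 15.00, 14.84, 14.99 and 14.89 in C57BL/6 (0.94, SE 0.07). Bhlhe41 (0.88) and Bhlhe40 (0.68) were higher and Ciart, a repressor of the clock, was lower (-0.92). Per1, Per2 and Nr1d1 differed by -0.28, -0.07 and -0.12 and were not called. Rorb differed by 2.41, but its probes were called in both directions, from -1.76 to 2.41. The hour of tissue collection was not used here. Of 25 monoamine genes, the histamine-forming enzyme Hdc, a marker of tuberomammillary neurons, read 11.78 to 12.30 in BALB and 12.72 to 13.68 in C57BL/6 (-1.21), and Maob, an amine oxidase, differed by -0.91. The dopamine enzyme Th differed by 0.41 and was not called. Of 11 immediate early genes, Ier2 was higher (1.46), with its second probe at -0.69 and not called, and Fos was not called (0.64). Of 11 glucocorticoid-induced genes limma called 0, and 5 had an unadjusted p under 0.05.

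Of 7 tested genes whose alleles are described as differing between these strains or their relatives, H2-Ea, Gabra2 and Nnt were higher and Ly6a was lower. Gabra2, a subunit of the GABA-A receptor that is reduced by an intronic deletion in C57BL/6J mice, read 11.38, 11.80 and 12.08 in BALB and 10.53, 10.60, 10.26, 10.69 and 10.87 in C57BL/6. It was higher by 1.21 in young hypothalamus, by 1.48 in aged hypothalamus and by 3.01 in cerebellum. The cerebellum labels give the strain as C57BL/6, without the substrain named in the hypothalamus labels. Nnt, the mitochondrial transhydrogenase that is truncated in C57BL/6J, was higher by 0.54 on its brightest probe, and its 4 probes ranged from -0.53 to 0.54. Ly6a, the antigen Sca-1, read 8.01 to 8.94 in BALB and 9.86 to 10.68 in C57BL/6 (-1.57), with -1.88 in cerebellum. It was the one member called lower of 14 Ly6 family genes tested, and the median was -0.53. Lypd6 was higher (0.71, lost in 8 of 12 cases when single arrays were left out). At an unadjusted p under 0.05, 7 of the 14 were lower. Over all 22134 genes, 5335 were lower at an adjusted p under 0.05, a stricter cut.

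**Figure D5:**
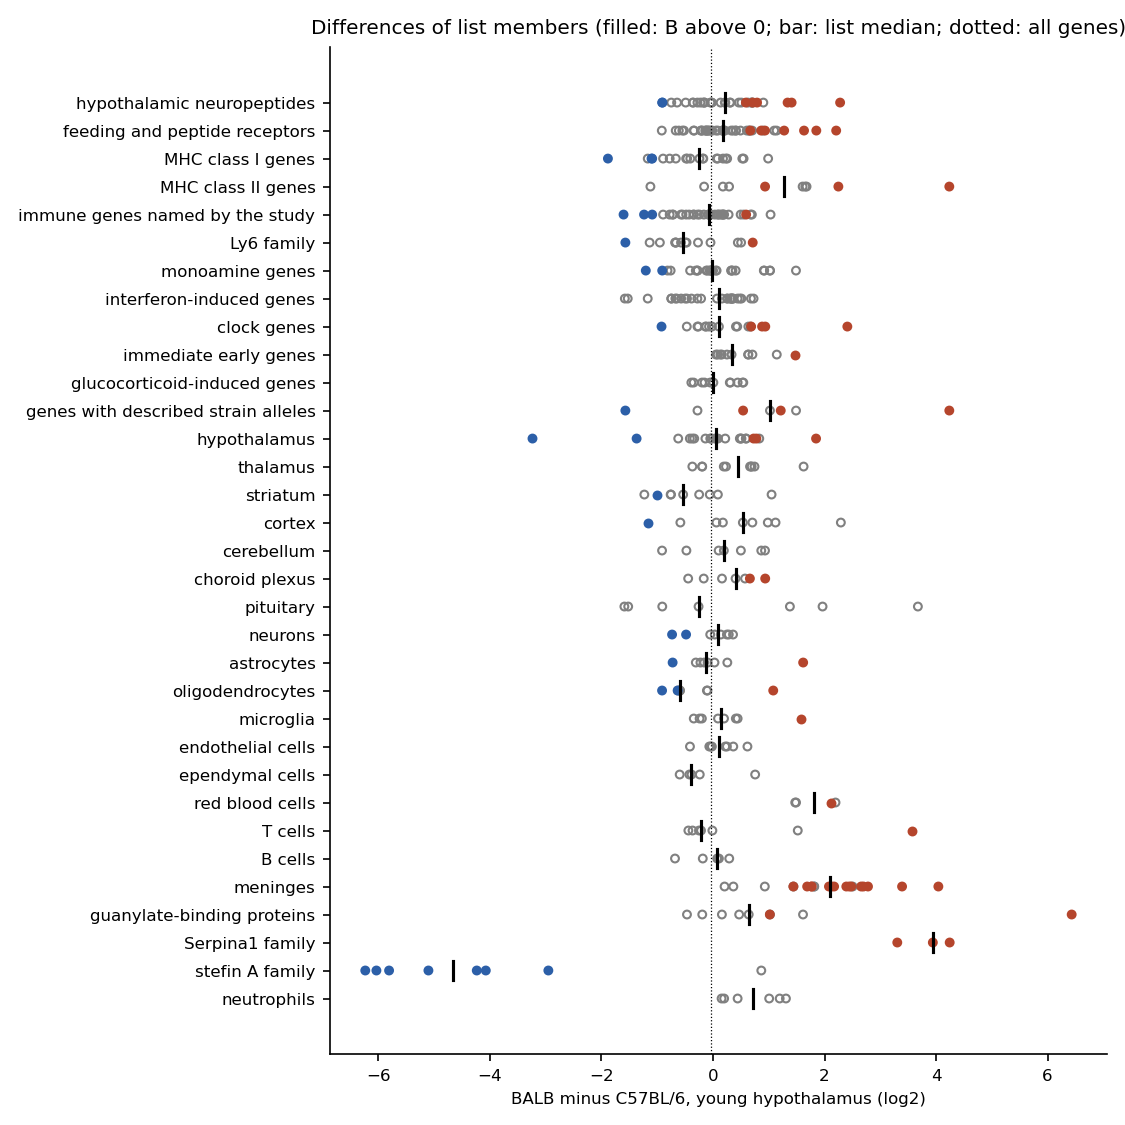
BALB minus C57BL/6 difference (log2) of each tested member of each list in young hypothalamus. Filled points had B above 0 (red higher, blue lower in BALB), bars are list medians and the dotted line is the median of all genes, -0.03. Meninges, red blood cell and Serpina1 members lie to the right, stefin A members other than Stfa3 to the left, and most lists straddle the line.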

How the data were processed

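Hypothalamus RNA of 7 young BALB and 5 young C57BL/6 mice was read on 1-colour Agilent arrays, with aged hypothalamus (6 and 5 arrays) and aged cerebellum (4 and 6) read beside it. Groups came from the labels, and nothing in them ties arrays to a shared animal. The authors deposited scanner files whose processed signal is an intensity, background-subtracted by Feature Extraction. The labels name version 9.1, whereas the headers give 9.1.3.1, 10.1.1.1 and 10.5.1.1. The deposited series table holds log2 values, used as an alternative only, and 0 of its columns were left unmapped.

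Log2 processed signals were quantile normalized within each comparison and control spots were left out. A probe was tested when well above background on at least 5 arrays in hypothalamus or 4 in cerebellum, and a gene was given by its brightest tested probe. limma 3.58.1 (lmFit and eBayes, prior proportion 0.01) in R 4.3.3, with statmod 1.5.0 and data.table (version 1.17.8), gave differences, adjusted p-values (Benjamini-Hochberg) and B, and genes were called at B above 0. A fold bound set the bright strain's mean against, on each dim array, the higher of the probe and the lowest signal well above background. With arrays, the number per strain limits the precision.

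Of 41174 probes, 25345 were named through a RefSeq accession, 5313 by a current symbol and 2404 by an older symbol, and 8112 kept the name in the file, giving 27537 gene names. The promoter sequences are RefSeq's (GRCm38.p6), an assembly also used for gene order. The fit was tested on simulated data for the young comparison over 33503 probes. Of 200 changed probes, 61% of 2-fold and 76% of 4-fold changes were recovered, with 17 false calls. The simulated arrays were drawn independently around a common mean per probe, with every probe taken as well above background. They held no slide or software difference between strains, so the false calls do not give the error rate of the real calls.

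The genes named were those with a current symbol read in a single strain, the 10 per direction with the largest difference among genes well above background on all 12 arrays without overlap, and called or defining members of the lists. Members and lists were chosen with earlier results of these data known, and the meninges, guanylate-binding protein, Serpina1, stefin A and neutrophil lists, and the genes read on 1 array of the other strain, were added after the values were seen. Alternatives were scaling to the 75th percentile, normexp (offset 50) on median signals, since the mean signal column is absent from the C57BL/6 hypothalamus and all cerebellum files used here, the filter, the probe rule, an adjusted p under 0.05, slide and replicate blocks, the series table and leaving out each array.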

Additional observations from a re-analysis of the deposited data

Results flagged for a closer look

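Single arrays standing apart from the rest of their strain were found in 25 of 220 groups of values tested with Dixon's criterion, and chance gives such a sample in about 1 of 20 groups. BALB array 1 accounted for most of them. It had 90.1% of probes well above background, a median correlation of 0.932 with the other BALB arrays and a class I list mean of 11.1. Among genes, BALB array 1 was the highest of its strain for Ccl21a (7.89), Cldn34c1 (4.73), Cstdc4 (3.47), Cstdc5 (6.40), H2-Bl (7.85), Prdm16 (8.80), Rec8 (10.61), Thumpd1 (3.31) and Trim12a (4.17). It was the lowest for Kiss1r (7.95) and Sim1 (3.00). BALB array 2 was the lowest for Clec3b (9.11), Slpi (8.47) and Mbp (15.98), BALB array 3 the highest for Sft2d1 (4.61) and Smg8 (4.04), and BALB array 6 the highest for Afm (3.13). In C57BL/6, array 3 had 79.3% of probes well above background and a median correlation of 0.991, array 5 was lowest for Ccl21a (8.84), array 2 highest for Ccnb1ip1 (5.66) and array 1 highest for Slpi (6.01).

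For 3 of the named genes every BALB array lay on opposite sides of the C57BL/6 arrays in the 2 tissues. Aqp4 differed by 1.62 in young hypothalamus and -1.55 in cerebellum, Cep20 by -5.75 and 2.68, and Smg8 by -5.13 and 2.61, the last on a probe not tested in cerebellum. The difference between tissues was not tested for any of them.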

How the results depend on the processing

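Single named genes were recomputed under 17 alternatives (not under the other filters, probe rule and adjusted p). None of the 103 called named genes changed direction and 62 stayed called under all 17, while 7 of the 31 named genes not called, Hcrt, Mc4r and Nr1d1 among them, changed sign under at least 1. The differences of called named genes shrank by more than a factor of 1.5 for 45 genes with normexp, 38 in the series table and 3 with 75th percentile scaling (Mbp -0.18, Slc1a2 -0.43 and Stmn2 -0.31). The 4362 genes called in young hypothalamus became 10046 at an adjusted p under 0.05, 3290 with slide as a random block (correlation 0.564) and 3587 to 5037 when single arrays were left out. Replicate numbers did not pair the samples (correlations of -0.20 to 0.14 between same-numbered arrays), and a replicate block left 1836 called genes, 15 list members in place of 36 and 8 meninges markers in place of 15. List members called were 98 at an adjusted p under 0.05 and 27 to 45 with single arrays left out, and meninges markers 4 with slide as a block and 10 to 18 with single arrays left out. Genes read in a single strain numbered 55 with normexp and 119 to 261 with single arrays left out, against 123. In young hypothalamus the share of calls that were higher in BALB was 45.0%, and 54.7% when only probes well above background on all arrays were tested. The cerebellum count of 943 became 556 with slide as a block and 640 to 1539 with single arrays left out, the highest without BALB array 1, and its share of higher calls moved from 52.1% to 37.9% with 75th percentile scaling. The strain by age interaction gave 4 genes without young BALB array 1. The cause of these changes was not tested.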

Other observations

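Several genes read on every C57BL/6 array and on 1 BALB array were not described above. Lrrtm4, a synaptic adhesion protein, read 1.66 to 4.07 in BALB and 8.12 to 8.56 in C57BL/6, a difference of -5.85. Its second probe differed by -1.77 without a call. In cerebellum the gene read 4.53 to 6.28 against 6.60 to 7.63 and was not called. In aged hypothalamus Lrrtm4 read 8.30 on BALB array 5, within the C57BL/6 range of 8.03 to 8.84. It read 1.87 to 4.42 on the other aged BALB hypothalamus arrays. Cep20, a protein of the centrosome, read 1.46 to 3.62 in BALB hypothalamus and 6.10 to 8.59 in C57BL/6, whereas in cerebellum the BALB arrays (6.29 to 8.17) lay above the C57BL/6 arrays (3.53 to 5.29).

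Vmn2r29, a vomeronasal receptor gene, differed by -4.48 in hypothalamus and -2.98 in cerebellum, although only 1 of its 3 tested probes was called. Afm, a plasma vitamin E carrier, differed by -4.16 and -2.14, and its neighbours Afp and Rassf6 by 0.18 and 0.31 in hypothalamus, neither called. Prr18, the gene beside Sft2d1, was well above background on all 12 arrays and differed by -2.21 in hypothalamus and -3.0 in cerebellum.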
